A study of Mus musculus with 2 samples.

Results

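The immunoglobulin constant genes Ighm, Ighd, Igkc and Iglc2 and the joining chain gene Jchain were sought in the sc-RNA-seq of mouse bone marrow. Of these 5 genes, chosen by name, 1 was listed in each count table, Jchain, among 12760 genes for Col1a1fspKO and 12763 for WT. The other 4 had no row in either table and were not analysed here. The Jchain transcripts were almost entirely in 1 cell of each library, and nearly absent from the rest of the B lineage.

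Marrow from the femurs and tibias of mice aged 2 months was sorted for live cells. Col1a1fspKO mice carried Fsp1-Cre and Col1a1flox/flox, so the type I collagen gene Col1a1 was targeted in cells where the Fsp1 (S100a4) promoter drives Cre. WT littermates lacked Cre but carried the same floxed Col1a1. Neither group had a treatment. Cells of 2 mice were pooled into 1 library per genotype. These held 1309 Col1a1fspKO cells with 8647722 unique molecular identifiers (UMIs, counted transcripts) and 1169 WT cells with 8624469 UMIs. Median depth per cell was 4954 UMIs for Col1a1fspKO and 5534 for WT, 2 cell barcodes occurred in both libraries, and a doublet caller marked 5 cells in each. The clusters held cells with markers of neutrophils, monocytes or macrophages, B cells, erythrocytes and other marrow lineages. With 1 library per genotype there was no test, and every interval below is a 95% interval for counting error only.

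A B cell makes an antibody from a heavy chain, whose constant part is encoded by Ighm or Ighd in cells that have not switched class, and from a light chain, kappa (Igkc) or lambda (Iglc2 and its neighbours). Before the light chain is rearranged, the heavy chain pairs with a surrogate light chain made from Igll1 and Vpreb1. J chain is a small protein that links the units of polymeric IgM and IgA, and it is known as a product of antibody-secreting plasmablasts and plasma cells, many of which reside in the bone marrow.

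In the RefSeq annotation of GRCm38.p6, Jchain is a protein-coding gene on the minus strand at chr5:88519809-88527897. The other 4 genes are annotated as constant-region segments, Ighm at chr12:113418826-113422730 and Ighd at chr12:113407535-113416324 on the minus strand, Igkc at chr6:70726435-70726754 on the plus strand and Iglc2 at chr16:19198536-19198852 on the minus strand. None of 9 further constant genes of the heavy and lambda loci was listed either. In the GENCODE M21 annotation, 0 of 430 immunoglobulin segment symbols and 0 of 270 T cell receptor segment symbols were listed in either table, against 11933 of 21923 protein-coding symbols. The lack of a row was therefore shared by all antigen receptor segments, and no level, not even 0, can be read for Ighm, Ighd, Igkc or Iglc2. How the rows came to be absent was not tested.

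The promoter of Jchain is shown because Jchain is the 1 member that was measured and its transcripts were so unequally spread over cells. The sequence is from RefSeq (GRCm38.p6, chr5:88527848-88528147, minus strand), written 5′ to 3′ from 250 bases before the annotated start to 50 bases after it. Capitals mark each CANNTG, the E-box, a motif bound by basic helix-loop-helix factors such as the B cell factor encoded by Tcf3.
Jchain promoter: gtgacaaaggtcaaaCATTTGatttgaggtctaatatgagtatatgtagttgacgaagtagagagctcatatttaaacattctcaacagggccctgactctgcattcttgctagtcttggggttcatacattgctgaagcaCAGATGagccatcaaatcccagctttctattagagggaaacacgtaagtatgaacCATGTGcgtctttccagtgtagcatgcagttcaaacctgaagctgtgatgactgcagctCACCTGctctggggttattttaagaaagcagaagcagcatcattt
The motif, which reads as CANNTG on both strands, occurred 4 times. Of 32851 mouse promoters of the same length, 72.3% held it at least once and 6.49% held it at least 4 times, with a median of 1. The octamer ATGCAAAT, known from immunoglobulin promoters, was not found in this window on either strand and was present in 1.74% of the promoters. These matches describe letters only.

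Jchain was counted 629 times, 461 UMIs in Col1a1fspKO and 168 in WT. In Col1a1fspKO, 1 cell held 457 of them, 4 cells held 1 UMI each and 1304 cells held 0. In WT, 1 cell held 161, 7 cells held 1 UMI each and 1161 cells held 0. No cell lay between 1 UMI and the high cell of its library. These 2 cells are called the Jchain-high cells below.

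**Figure D1:**
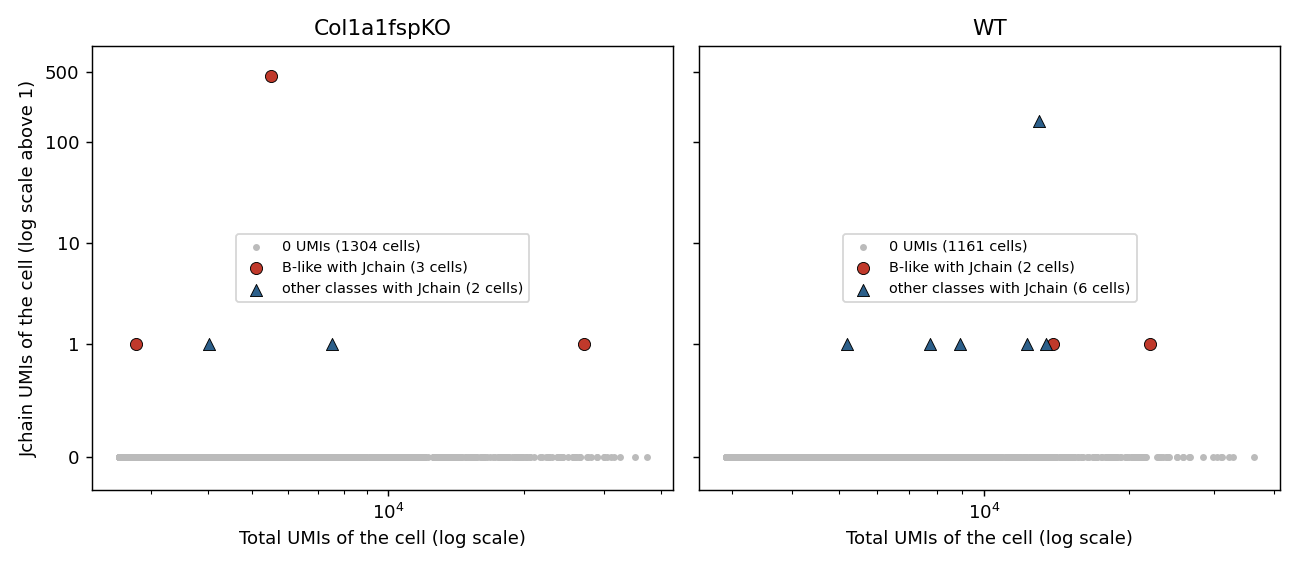
Jchain UMIs of each cell (vertical axis, log scale above 1) against the total UMIs of the cell (horizontal axis, log scale), for Col1a1fspKO (left) and WT (right). Grey points are cells at 0, circles are B-like cells and triangles are cells of other classes. The single points at 457 and 161 UMIs stand above 4 and 7 cells at 1 UMI.

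The Jchain-high cell held 99.1% of the Jchain UMIs of Col1a1fspKO and 95.8% of those of WT. Among genes with at least 50 UMIs in a library, this was the highest share held by any 1 cell, rank 1 of 8141 genes in Col1a1fspKO and rank 1 of 8171 in WT. The next gene was Stfa3 in Col1a1fspKO, with 41.0% of 61 UMIs in 1 cell, and the chemokine gene Cxcl12 in WT, with 89.8% of 118 UMIs. For the median gene, the top cell held 2.04% in Col1a1fspKO and 1.95% in WT. Both Jchain-high cells thus carried a gene that nearly every other cell lacked, whereas in WT the gap to the next gene was small.

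**Figure D2:**
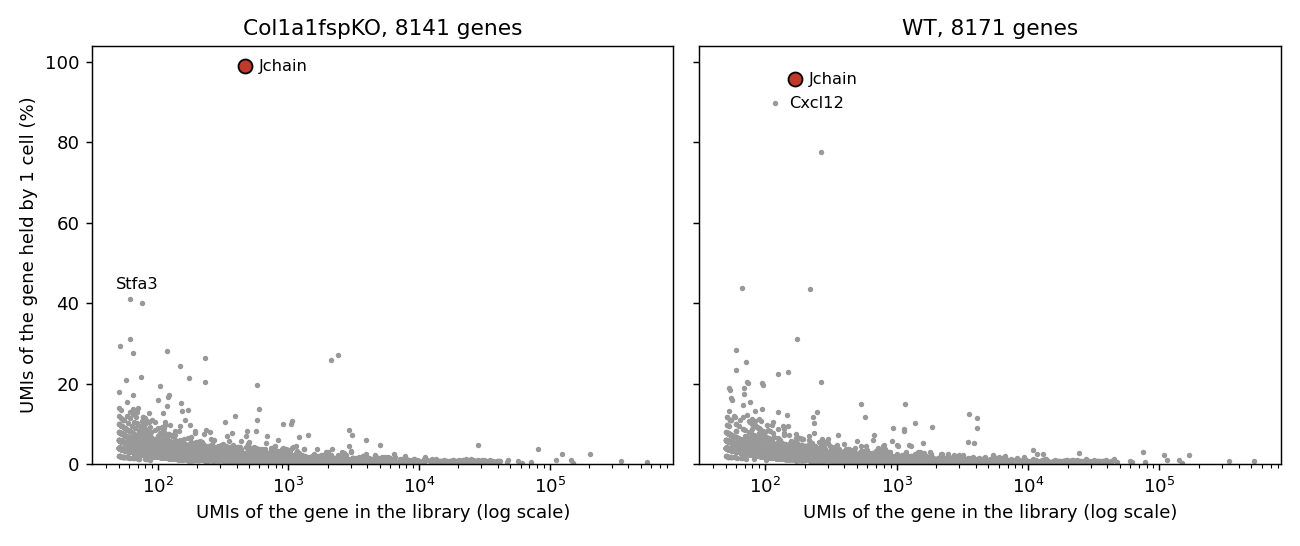
Share of a gene's UMIs held by its top cell (vertical axis, %) against the gene's UMIs in the library (horizontal axis, log scale), for genes with at least 50 UMIs in Col1a1fspKO (left) and WT (right). Each point is a gene. Jchain, the large point, lies at 99.1% and 95.8%, and the next gene in each library is named.

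In the Jchain-high cell of Col1a1fspKO, Jchain was the most abundant gene, 457 of 5500 UMIs or 8.31% (exact binomial interval 7.59 to 9.07). Of 7 listed plasma cell markers, 6 had a UMI, 24 UMIs in all. Fkbp11, a chaperone of the secretory pathway, had 6 UMIs, Sdc1, which encodes the plasma cell surface protein CD138, had 3, and Derl3, a component of endoplasmic reticulum-associated degradation, had 2. Prdm1, which encodes the plasma cell factor Blimp-1, was at 0, where the interval reaches 6.71 per 10000. Among B cell markers, Cd79a had 1 UMI and Cd74 had 13, and Cd79b, Pax5, Ebf1 and Vpreb3 were at 0. For Vpreb3, the other B-like cells of the library had a median of 16 UMIs. No marker of monocytes and macrophages (0 of 6) or of T and NK cells (0 of 7) was detected.

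Genes of protein secretion were high in the same cell. A group of 16 such genes, put together after these values were seen, made up 262 UMIs or 4.76% of the cell, against a median of 0.299% and a maximum of 0.978% over the 247 other B-like cells of the library. All 16 were above the average of those cells with the whole interval. For 14 of them this cell had the highest rate in the library. No share over all genes stands beside these counts, which are descriptive. Mzb1, a chaperone of antibody assembly, reached 92.7 UMIs per 10000 (69.0 to 122), against 6.89 in the other B-like cells. Xbp1, the transcription factor of the secretory program, had 24 UMIs and a rate of 43.6 per 10000 against 0.388. Txndc5, a disulfide isomerase, had 29 UMIs and 52.7 per 10000 against 0.609. None of 8 cell cycle genes, also chosen afterwards, had a UMI.

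The Jchain-high cell of WT had another profile. Jchain took 161 of its 12988 UMIs, 1.24% (1.06 to 1.45), and ranked 3 among its genes. The share in the Col1a1fspKO cell was 6.70 times as high (5.59 to 8.07), which compares 2 single cells. Only 3 of the 7 plasma cell markers had a UMI, Eaf2 (2 UMIs), Derl3 (1) and Creld2 (1), and Sdc1, Fkbp11 and Prdm1 were at 0. B cell markers were detected, among them Cd74 with 17 UMIs, Cd79a with 10, Vpreb3 with 8, Cd79b with 6 and Ebf1 with 1, and Pax5 was at 0. Relative to depth most were below the B-like cells of the library. Cd79a was at 7.70 per 10000 against 13.4, Cd79b at 4.62 against 9.15, Vpreb3 at 6.16 against 22.8 and Ebf1 at 0.770 against 20.2. Cd74 was at 13.1 against 12.6, and at 23.6 against 14.3 in the Col1a1fspKO cell. The cell cycle genes had 37 UMIs, or 28.5 per 10000. The median over single B-like cells of the library was 18.4, which is not the summed rate used for each gene below. Among the 37 UMIs were 9 of Top2a, 8 of Pcna and 8 of Mcm6. Only for Mcm6, at 6.16 per 10000 (2.66 to 12.1), did the interval lie above the summed rate of the B-like cells, 1.23. For the other cell cycle genes the interval held that rate. Top2a, Pcna and Mki67 were above it, and Rrm2, Nusap1, Cdk1 and Ccnb1 were below it. Irf4, a transcription factor needed for plasma cell differentiation, had 5 UMIs in the WT cell, 3.85 per 10000 (1.25 to 8.98). It had 0 in the Col1a1fspKO cell, where the interval reaches 6.71 per 10000, so no difference in Irf4 can be read.

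The secretory genes of the WT cell summed to 120 UMIs or 0.924%, the highest share of the 1169 cells of its library. The highest B-like cell had 0.905% and the median 0.290%, so the lead over the next cells was narrow. For 9 of the 16 genes the interval lay above the average of the B-like cells. This count has no share over all genes beside it, and the genes were chosen after their values were seen, so it is descriptive. Txndc5 had 10 UMIs and Hsp90b1, an endoplasmic reticulum chaperone, had 21, at 7.70 and 16.2 per 10000 against 0.564 and 2.59. Mzb1, at 7.70 per 10000, was near the 6.64 of the B-like cells. Crip1 had 156 UMIs in the WT cell and 5 in the Col1a1fspKO cell, and Ly6c2 had 0 and 16. Pou2af1, a coactivator at immunoglobulin promoters, had 6 UMIs in each.

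**Figure D3:**
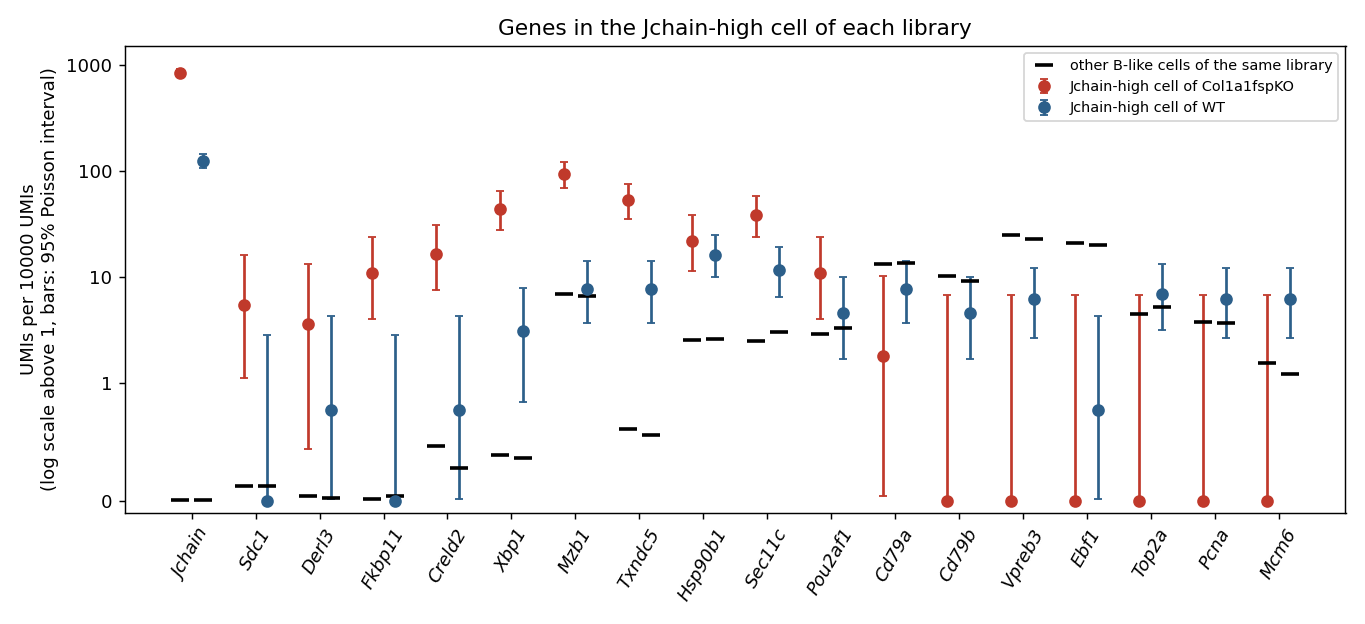
UMIs per 10000 UMIs (vertical axis, log scale above 1) of Jchain and of genes of plasma cells, secretion, B cells and the cell cycle in the Jchain-high cell of Col1a1fspKO (red) and of WT (blue), with 95% Poisson intervals. Black bars give the summed rate of the other B-like cells of the same library. The secretory genes shown lie above the bars in the red cell and, by less, in the blue cell. In the blue cell Cd79a, Cd79b and Vpreb3 are detected but lie below the bars, and the cell cycle genes shown lie above them. Of the cell cycle genes not shown, in the blue cell Mki67 was above the summed rate, and Rrm2, Nusap1, Cdk1 and Ccnb1 were below it.

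Neither cell was called a doublet, and mitochondrial UMIs made up 3.95% in Col1a1fspKO and 3.20% in WT. Transcripts of other lineages were present in both cells. S100a8, a neutrophil gene, had 15 UMIs in the Col1a1fspKO cell and 19 in the WT cell, or 27.3 and 14.6 per 10000 UMIs, below the summed rates of 81.4 and 67.0 of the other B-like cells. The globin gene Hbb-bs had 59 and 74 UMIs, or 107 per 10000 against 62.8 in Col1a1fspKO and 57.0 against 84.3 in WT. Relative to depth, only Hbb-bs in the Col1a1fspKO cell was above the summed rate of the other B-like cells among these 4 values. For S100a8, those summed rates include the cells of a B-like cluster led by neutrophil genes. The median over the other B-like cells was 7 S100a8 UMIs in Col1a1fspKO and 7.5 in WT, and 29 and 32.5 for Hbb-bs. Median depth of those cells was 4292 and 5514 UMIs. Both Jchain-high cells were deeper than this and had more UMIs of both genes than the median. The part of these transcripts in the Jchain values was not tested.

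Jchain had been left out of the clustering. The Col1a1fspKO cell nevertheless fell in a B-like cluster of 108 cells, in which Jchain ranked 2 among the leading genes because of this 1 cell. The WT cell fell in a cluster of 103 cells named Mono/Macro-like by its markers, in which Jchain ranked 7, although the cell itself had 0 of 6 Mono/Macro markers. The class of the WT cell therefore does not describe it. Values for Mono/Macro-like cells are given without it, except where genes are compared with Jchain over the classes. The Col1a1fspKO cell had 2 of 7 B cell markers and the WT cell had 6 of 7. By cluster, only the Col1a1fspKO cell was counted as B-like, although it had fewer of these markers.

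Plasma-like cells were also sought without Jchain, as cells with a UMI of at least 3 of the plasma cell markers. Of 8 markers 7 were listed, with Tnfrsf17 not listed. This gave 10 cells in Col1a1fspKO and 9 in WT, and both Jchain-high cells were among them. The other 17 had 0 Jchain UMIs, no more than 4 markers and secretory shares from 0.156% to 0.666%, and 16 of them were deeper than the median cell of their library. When each cell was thinned to 2500 UMIs, 2 cells in Col1a1fspKO and 0 in WT passed. At least 4 markers were found in 1 cell of Col1a1fspKO, the Jchain-high cell, and in 3 cells of WT, none with Jchain. At least 6 markers were found in the Col1a1fspKO Jchain-high cell alone.

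Other genes were less confined to these 2 cells. Of the genes with at least 50 UMIs, the share held by the 2 cells together was 98.3% for Jchain, 12% for Fkbp11 (6 of 50 UMIs), 7.69% for Tram2, which acts at the endoplasmic reticulum translocon, 7.32% for Rom1, 5.58% for Txndc5 (39 of 699 UMIs) and 4.48% for Sdc1. These shares follow from the choice of the cells by Jchain and are descriptive.

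The B lineage comprised 470 B-like cells, 248 in Col1a1fspKO and 222 in WT, which were sub-clustered into stages by markers. There were 23 pro-B-like, 256 large pre-B-like, 63 small pre-B-like and 98 mature B-like cells, and no cluster scored as immature B. A cluster of 30 cells led by neutrophil genes such as S100a8 and Ltf stayed unnamed. The 3 clusters of large pre-B-like cells had none of that stage's markers among their leading genes, so their name is the least certain.

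Jchain was not detected in the 23 pro-B-like cells, which allows a share of up to 13%. This limit and the others like it are 3 counts over the number of cells, and they concern cells with a detected UMI, not cells that express the gene. In large pre-B-like cells there was 1 UMI in Col1a1fspKO, 0.85 CPM (0.0215 to 4.73, where CPM is the UMIs of the gene scaled to 1e+06 UMIs of the class), and there were 2 in WT, 1.40 CPM (0.170 to 5.07). Small pre-B-like cells had 1 UMI in Col1a1fspKO, 8.77 CPM (0.222 to 48.9), and 0 in WT. The intervals of these stages overlapped, so that no order among them can be read. In mature B-like cells, Col1a1fspKO reached 2379 CPM (2166 to 2607), but all 457 UMIs came from 1 of 56 cells. WT had 0 UMIs in 42 cells, which allows a share of up to 7.14%. Without the Jchain-high cell, 0 of 97 mature B-like cells had a UMI, which allows up to 3.09%.

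Late (mature) over early (pro-B to small pre-B) B-like cells gave a ratio of 1587 (437 to 13143) in Col1a1fspKO, from 457 against 2 UMIs. This ratio was set by the 1 cell. In WT, 0 late and 2 early UMIs were both at or under the floor of 3 counts, and no fold is given.

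Outside the B lineage, Jchain appeared only as single UMIs once the WT Jchain-high cell was set aside. They were found in 2 of 963 neutrophil-like cells (0.208%), 2 of 541 Mono/Macro-like cells (0.370%), 2 of 162 erythrocyte-like cells (1.23%) and 1 of 90 T/NK-like cells (1.11%). None was found in 151 progenitor-like cells, which allows up to 1.99%, in 73 plasmacytoid dendritic-like cells, up to 4.11%, or in 27 eosinophil or basophil-like cells, up to 11.1%. In all, 7 of 2007 cells outside the B lineage had a UMI, 0.349% (exact interval 0.140 to 0.717), at a median depth of 5264 UMIs.

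The B-like cells other than the Jchain-high cell had a similar share. It was 4 of 469, 0.853% (0.233 to 2.17), at a median depth of 4893, and the intervals overlapped. After thinning to 2500 UMIs, the share in B-like cells was 0.810% in Col1a1fspKO and 0.450% in WT, against 0.0943% and 0.317% outside the lineage. A level of Jchain in B-like cells above that of cells that should lack the gene was therefore not detectable at this depth. Of the 11 cells with 1 UMI, 8 were deeper than the median of their own library, 2 of 4 in Col1a1fspKO and 6 of 7 in WT, and their median depth was 8897 UMIs.

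The UMIs found outside the B lineage and the plasmacytoid dendritic-like cells can be set against those in the source cells. Jchain had 2 such UMIs in Col1a1fspKO and 5 in WT, or 0.438 and 3.11 per 100 UMIs of the Jchain-high cell. For genes made by many B-like cells the corresponding values per 100 UMIs in B-like cells were 3.74 and 2.31 for Igll1, 5.07 and 3.36 for Cd79a, 5.90 and 2.63 for Mzb1 and 6.86 and 4.18 for Vpreb3. Jchain in Col1a1fspKO was thus below the range of these genes, and in WT it lay within it. The share of those cells with a UMI was 0.196% and 0.546% for Jchain, and 14.5% and 12.3% for Vpreb3. Whether the single Jchain UMIs came from free RNA was not tested.

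Summed over all cells of a library, Jchain made up 53.3 CPM of Col1a1fspKO (48.6 to 58.4) and 19.5 CPM of WT (16.6 to 22.7). The ratio was 2.74 (2.29 to 3.29), past 1.5-fold. As background, 5.93% of 9725 genes with at least 50 UMIs were past 1.5-fold in either direction, 3.0% higher in Col1a1fspKO and 2.93% lower. Without the 2 Jchain-high cells, 4 UMIs stood against 7, a ratio of 0.569 (0.122 to 2.24). The direction over all cells thus rested on 1 cell in each pool.

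In B-like cells, 459 UMIs in Col1a1fspKO stood against 2 in WT, a ratio of 249.6 (68.7 to 2068). Here 3.64% of 5799 genes were at least 1.5-fold higher in Col1a1fspKO and 3.97% lower, with a median ratio of 0.995. The Jchain-high cell of Col1a1fspKO, with 2 of 7 B cell markers, counted as B-like, and that of WT, with 6 of 7, did not. Without the Col1a1fspKO cell, 2 UMIs stood against 2, both under the floor of 3 counts, and no fold is given. A difference between the genotypes in Jchain outside these 2 cells was not detectable at this depth. Such a cell was found once among 1309 cells and once among 1169.

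The genes that build, rearrange or regulate the antibody genes were followed as a list of 22, of which 20 were listed. Pigr and Fcamr, which encode receptors for secreted polymeric IgM, were not listed. In B-like cells 18 genes had at least 50 UMIs, with a median ratio of Col1a1fspKO over WT of 1.003. Of these, 1 was at least 1.5-fold higher and 0 were lower, against 7.6% of all 5799 genes past this fold in either direction. The gene was Dntt, the terminal transferase that adds bases at the joints of rearranged segments, with 215 UMIs in Col1a1fspKO and 149 in WT, a ratio of 1.57 (1.27 to 1.95). In large pre-B-like cells Dntt was at 133 CPM in Col1a1fspKO and 55.5 in WT, and in pro-B-like cells at 1326 and 2049. The large pre-B-like UMIs came from few cells, 17 of 121 in Col1a1fspKO and 8 of 135 in WT. Xbp1 had 87 UMIs against 65, a ratio of 1.46 (1.04 to 2.04), and 24 of the 87 were in the Jchain-high cell.

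Several genes of the list had been used to name the stages, so their levels by stage are a description. The surrogate light chain gene Igll1 was at 5771 CPM in Col1a1fspKO and 4448 in WT in pro-B-like cells, and fell to 706 and 725 in large pre-B-like cells. In small pre-B-like cells it was at 8.77 and 327 CPM, from 1 and 28 UMIs, and in mature B-like cells it had 0 and 1 UMI. Vpreb1 followed, with 7470 and 5941 CPM in pro-B-like and 8.77 and 362 in small pre-B-like cells. Rag2, a subunit of the recombinase, was at 209 and 380.5 CPM in pro-B-like cells, 33.1 and 35.8 in large pre-B-like, and 105.2 and 93.5 in small pre-B-like cells. As CPM, of these 3 stages Rag2 was lowest in large pre-B-like cells in both libraries. Those cells were deeper, with median depths of 6163 and 8432 UMIs against 2815 and 3089 in small pre-B-like cells. Rag2 had 39 UMIs in 121 large pre-B-like and 12 in 39 small pre-B-like cells of Col1a1fspKO. In WT it had 51 in 135 and 8 in 24. Per cell, Rag2 UMIs were thus not lower in large than in small pre-B-like cells. In thinned cells, 13.2% and 12.6% had a UMI, against 20.5% and 16.7%.

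Cd79a and Cd79b, the signalling partners of the B cell receptor, were found at every stage. Cd79a was at 2467 CPM in Col1a1fspKO and 2634 in WT in pro-B-like cells, and at 2663 and 2557 in mature B-like cells. As CPM its lowest level was in large pre-B-like cells, with 1038 and 1124. Those cells were deeper, with median depths of 6163 and 8432 UMIs against 3026 and 3640 in mature B-like cells. Cd79a had 1222 UMIs in 121 large pre-B-like and 497 in 55 mature B-like cells of Col1a1fspKO. In WT it had 1601 in 135 and 423 in 42. Per cell, Cd79a UMIs were thus not lowest in large pre-B-like cells. Cd79b was at 649 and 693 CPM in large pre-B-like cells and at 2577 and 2177 in mature B-like cells. Fcmr, a receptor for IgM, was at 0 in pro-B-like cells, at 61.4 and 58.4 CPM in small pre-B-like cells and at 766 and 810 in mature B-like cells. Zfp318, needed for the switch from IgM to IgD transcripts, had 3 UMIs in the mature B-like cells of each library, too few for a level. In both Jchain-high cells Igll1, Vpreb1, Pax5, Zfp318 and Prdm1 were at 0. The interval at 0 UMIs reaches 6.71 per 10000 in the Col1a1fspKO cell and 2.84 in the WT cell. For Pax5, Zfp318 and Prdm1 this is above the summed rate of the other B-like cells, so no lower level of these 3 can be read.

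**Figure D4:**
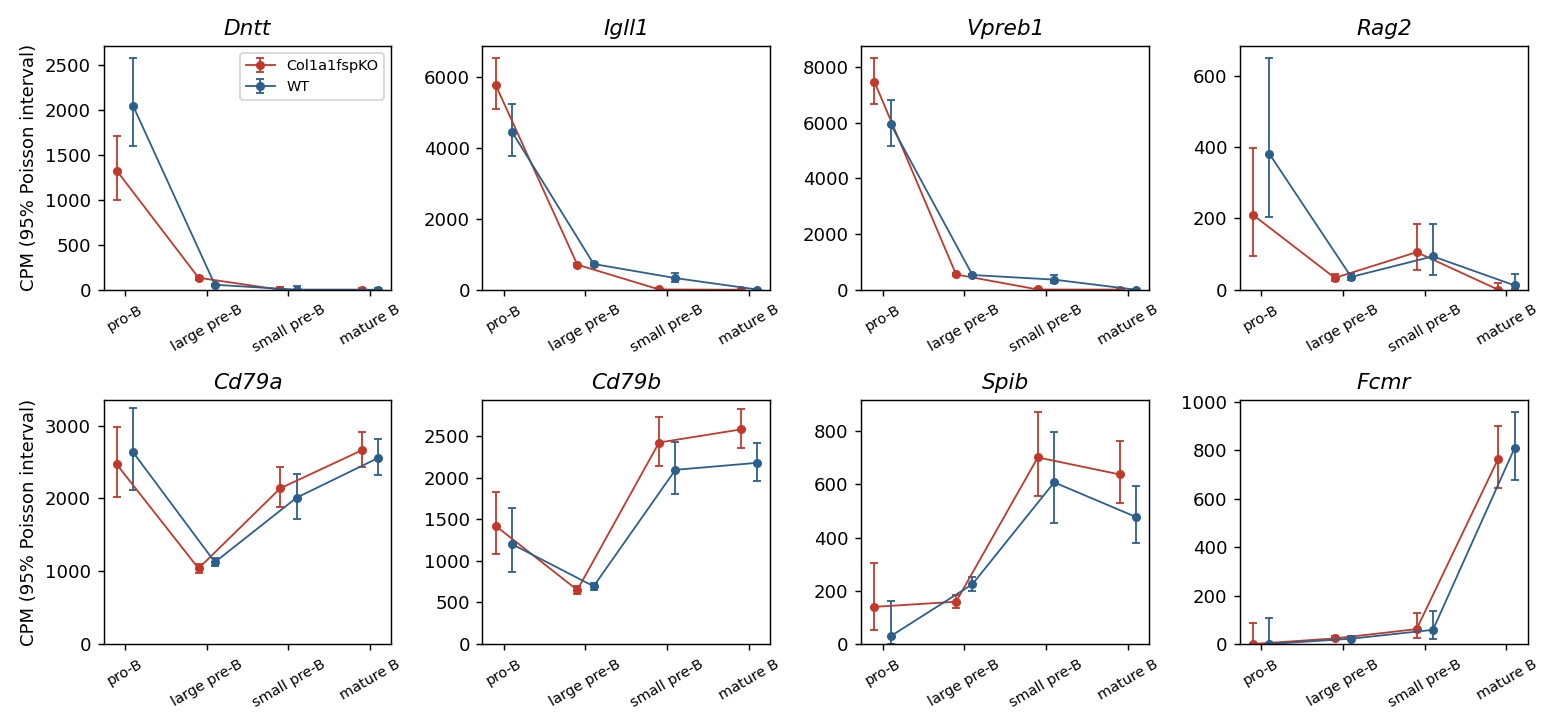
CPM (vertical axes, from 0, with 95% Poisson intervals) of 8 genes of the antibody pathway in pro-B-like, large pre-B-like, small pre-B-like and mature B-like cells of Col1a1fspKO (red) and WT (blue), without the Jchain-high cells. Dntt, Igll1 and Vpreb1 are highest in pro-B-like cells and Fcmr in mature B-like cells, in both libraries.

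The genes whose levels over 22 points, the stages and classes of each library, were most like those of Jchain were Gm26522 (Pearson r = 0.73), Cd40 (0.68), Sh3tc1 (0.68), Med13 (0.67) and Rras (0.66). The points share 2 libraries. The Jchain levels of the 2 highest points, mature B-like cells of Col1a1fspKO (2379 CPM) and Mono/Macro-like cells of WT (84.6 CPM), were each set by 1 cell, so these values of r follow from the classes in which those cells were placed and show no likeness between classes. Of the UMIs of the 5 genes, from 0 to 0.373% lay in the Jchain-high cells.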

How the data were processed

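Bone marrow cells were profiled with the 10x Genomics 3′ kit (v2). The deposited values were unnormalized counts of UMIs for every listed gene in each cell. The authors used Cell Ranger (version not given in the sources used here), and their processing notes name mm10 and Seurat 3.5.3. Cell limits from the study's methods, 200 to 7000 genes and at most 10% mitochondrial UMIs, removed 0 cells. Cells called doublets by Scrublet were kept. Libraries were merged and clustered in Seurat 5.3.0 (R 4.3.3, 2000 variable genes without Jchain, sex-linked and Ly6 genes, 27 principal components, resolution 0.8). B-like cells were clustered again with 10 components. Clusters were named from marker scores. UMIs were summed per class and library, with exact Poisson, Clopper-Pearson and conditional binomial intervals (scipy 1.17.1). A library at 0 was set to 3 UMIs for folds. Thinned cells had 2500 UMIs. Genes compared between genotypes had at least 50 UMIs. On Poisson counts simulated from pooled rates for the B-like comparison over 5799 genes, the intervals held the known ratio for 97.0% of 200 changed genes. Of the unchanged genes, 3.59% passed 1.5-fold. The simulation follows the model of the intervals and has no spread between cells. It therefore cannot show how they hold where 1 cell has most UMIs, as for Jchain.

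The members and gene lists were chosen with earlier results of these data known. Named genes were the members, the pathway lists and the 5 genes most like Jchain. The secretory and cell cycle groups, and other genes named in the Jchain-high cells, were chosen after their values were seen. A planned count of kappa and lambda use per cell was not made, since the light chain genes were not listed.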

Additional observations from a re-analysis of the deposited data

How the results depend on the processing

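Results were recomputed after clustering on every variable gene, at resolution 0.4 or 1.2 or on 15 principal components, with called doublets removed, a stricter cell filter, CCA integration, cells thinned to 2500 UMIs, means over single cells and CPM without Jchain. Leaving out the Jchain-high cell of each library and asking for at least 4 plasma cell markers were chosen after seeing the data, as were all alternatives for the ratio over all cells, the mature B-like level and the background count. Without the Jchain-high cells, the log2 ratio over all cells turned from 1.45 to -0.81 and the mature B-like level in Col1a1fspKO went from 2379 to 0 CPM, and the ratio in B-like cells had no value. Thinning gave a log2 ratio over all cells of 2.50, a mature B-like level of 1384 CPM, a log2 ratio of late over early cells of 8.17 (10.63 unthinned) and 260 genes past 1.5-fold in B-like cells (441 unthinned, fewer genes reaching 50 UMIs). The mean over single cells gave a mature B-like level of 1484 CPM. Cells past the plasma cell marker gate, 10 in Col1a1fspKO and 9 in WT, numbered 2 and 0 after thinning and 1 and 3 with at least 4 markers. The other 76 recomputed values stayed within the counting interval of the reported value or, for counts, within 1.5-fold. No paired analysis was possible because each genotype had 1 library. The sorted pools of 2 mice and the median depths of 4954 and 5534 UMIs per cell limit what can be seen of rare plasma cells, and spread between animals was not measured.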
